A study of Mus musculus with 6 samples.

Results

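The genes described here are those that fasten chromosome ends to the nuclear envelope in meiosis. They were chosen by name, as 8 of the 53700 mouse genes with a count in each library: Majin, Terb1, Terb2, Sun1, Sun2, Kash5 (Ccdc155 in the GENCODE M21 annotation), Spdya and Cdk2. Total RNA from testes of 6 mice at postnatal day 45 had been sequenced as single-end reads of 75 bases, 3 mice labelled with the wild-type Msl3 genotype (WT) and 3 labelled as conditional knockouts of a floxed Msl3 (cKO). Both groups carry the same strain label, Msl3em1Forni/C57BL/6J. The recombinase used for the deletion, the cells in which it acted and the deleted exons are not given in the sources used here. The series asks, by its title, whether loss of Msl3 affects spermatogenesis, and the comparison below asks it of the RNA of these genes.

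In early meiotic prophase, telomeres attach to the inner nuclear membrane and are pulled along it by cytoplasmic dynein, which brings homologous chromosomes together for pairing. The adaptor proteins Terb1, Terb2 and Majin take over the telomere from the shelterin complex and anchor it in the membrane. Sun1, with Sun2, spans the inner membrane and joins Kash5 of the outer membrane, which recruits dynein. Cdk2 sits at the attached telomeres with its activator Speedy A, the product of Spdya, and spermatocytes of mice that lack Cdk2, for example, arrest in prophase.

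The libraries held 56991431 to 73766444 reads assigned to genes. Haploid and meiotic germ cell RNA was abundant in them, with a mean of 4778 CPM (reads relative to TMM-scaled library size) for the protamine Prm2, 3741 CPM for the germ cell lactate dehydrogenase Ldhc and 178 CPM for the synaptonemal complex gene Sycp3. Msl3 itself had 16.0, 18.9 and 15.9 CPM in WT replicates 1 to 3 and 16.0, 14.8 and 15.8 CPM in cKO replicates 1 to 3, so the gene count did not separate the labels (log2 fold change -0.12, 95% interval -0.32 to 0.07, edgeR quasi-likelihood adjusted p = 0.551). Reads of single Msl3 exons were not analysed here. The library labelled cKO replicate 1 was closer to WT replicate 1 than to any other library, with a chi-square per degree of freedom of 5.25 over genes, against 39.9 and 20.1 with the other cKO libraries. The counts of genes past the threshold and the members' log2 fold changes were therefore also computed without each library. The ratios, marker sums and pattern search used all 6 libraries only. Every direction is that of the labels.

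The starts of the genes are shown first, because the counts measure the transcripts that begin there. RefSeq promoter windows on GRCm38.p6 were found for 6 of the 8 members, and the 100 bases before the annotated start are printed 5′ to 3′ on the strand of the gene. For Sun1, the upstream one of its 2 annotated starts is shown. Capitals mark TCCCGC or its reverse complement GCGGGA, a core of sites for E2F factors, among which E2F6 is known to act on germ cell genes.
Terb1, chr8:104509888-104509987, minus strand: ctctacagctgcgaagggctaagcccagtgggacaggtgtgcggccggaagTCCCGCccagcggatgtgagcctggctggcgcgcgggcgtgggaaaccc
Sun1, chr5:139200537-139200636, plus strand: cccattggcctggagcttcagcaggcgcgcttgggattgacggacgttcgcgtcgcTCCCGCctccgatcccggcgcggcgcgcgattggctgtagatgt
Spdya, chr17:71551961-71552060, plus strand: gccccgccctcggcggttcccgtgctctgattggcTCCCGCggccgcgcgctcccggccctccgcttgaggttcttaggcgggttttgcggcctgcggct
Cdk2, chr10:128705052-128705151, minus strand: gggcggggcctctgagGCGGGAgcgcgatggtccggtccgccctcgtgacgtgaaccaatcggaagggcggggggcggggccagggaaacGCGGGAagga
Sun2, chr15:79742537-79742636, minus strand: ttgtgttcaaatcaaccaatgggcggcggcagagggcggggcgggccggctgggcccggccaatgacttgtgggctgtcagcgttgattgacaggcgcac
Kash5, chr7:45204893-45204992, minus strand: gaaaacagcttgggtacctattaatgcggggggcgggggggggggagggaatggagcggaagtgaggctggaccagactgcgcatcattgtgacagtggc

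The core was present in 4 of the 6 windows, once in Terb1, Sun1 and Spdya and at 2 positions in Cdk2. It was present in 9.42% of the 32851 RefSeq windows of that length, and in 20.6% of the 12432 windows with at least 60% G and C, to which all 6 belong. Their G and C content ran from 61% in Kash5 to 74% in Spdya and Cdk2, against a median of 55%. CpG dinucleotides numbered 4 in Kash5, 8 in Sun2, 9 in Terb1, 13 in Cdk2, 14 in Spdya and 15 in Sun1, against a median of 3. The core AACNG bound by A-MYB, a regulator of meiotic genes, was present in 2 of the 6 windows (Kash5 and Spdya), in 41% of all windows and in 30.5% of those with at least 60% G and C. The cAMP response element TGACGTCA was in 0 of 6 and in 1.15% of all. The second annotated start of Sun1 (chr5:139215058-139215157), left out of these counts, had 44% G and C, 0 CpG, no TCCCGC and 1 AACNG. Such matches describe letters only. In the Terb1 window, 23 bases lie in the first exon of the GENCODE model.

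The members lie on 8 different chromosomes, none on X. On GRCm38, the build named in the submitters' processing notes as mm10, GENCODE M21 places Majin on chromosome 19 (6184388 to 6224225), Terb1 on chromosome 8 (104446719 to 104509910) and Terb2 on chromosome 2 (122186272 to 122206397). Sun1 is on chromosome 5 (139200637 to 139249840), Sun2 on chromosome 15 (79724070 to 79742536) and Kash5 on chromosome 7 (45183624 to 45204892). Spdya is on chromosome 17 (71552061 to 71589533) and Cdk2 on chromosome 10 (128697939 to 128705031). Their identifiers are ENSMUSG00000024786 (Majin), ENSMUSG00000052616 (Terb1), ENSMUSG00000027229 (Terb2), ENSMUSG00000036817 (Sun1), ENSMUSG00000042524 (Sun2), ENSMUSG00000038292 (Kash5), ENSMUSG00000052525 (Spdya) and ENSMUSG00000025358 (Cdk2). Sequence shared with other genes was small: 0% to 1.16% of the 75-base words of 7 members occurred in transcripts of another gene, and 8.11% of those of Spdya.

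All 8 genes were measured in every library, with 379 to 10163 reads per gene and library. Levels between genes were compared per length, as RPKM, here the CPM divided by the kilobases of exon. On that scale Spdya was at 41.9 to 56.9 RPKM over the 6 libraries and Kash5 at 40.5 to 50.4, so these 2 ranges overlapped. Sun1 followed at 17.0 to 18.3 RPKM, apart from the genes above and below it. Cdk2 (11.2 to 12.8), Terb1 (9.91 to 11.4) and Sun2 (8.68 to 11.6) overlapped with their neighbours in the order, while Majin (7.54 to 8.39) lay below all 3. Terb2 was lowest, at 2.96 to 3.68 RPKM. The membrane linker to dynein and the Cdk2 activator thus had the highest levels of RNA per length, and the adaptor that bridges Terb1 and Majin the lowest. Part of this order depends on the gene model: with the longest transcript as the length, the mean of Sun1 was 32.7 RPKM instead of 17.8 and that of Cdk2 22.4 instead of 11.8, with Spdya (55.8) and Kash5 (46.7) still highest and Terb2 (3.24) lowest.

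**Figure D1:**
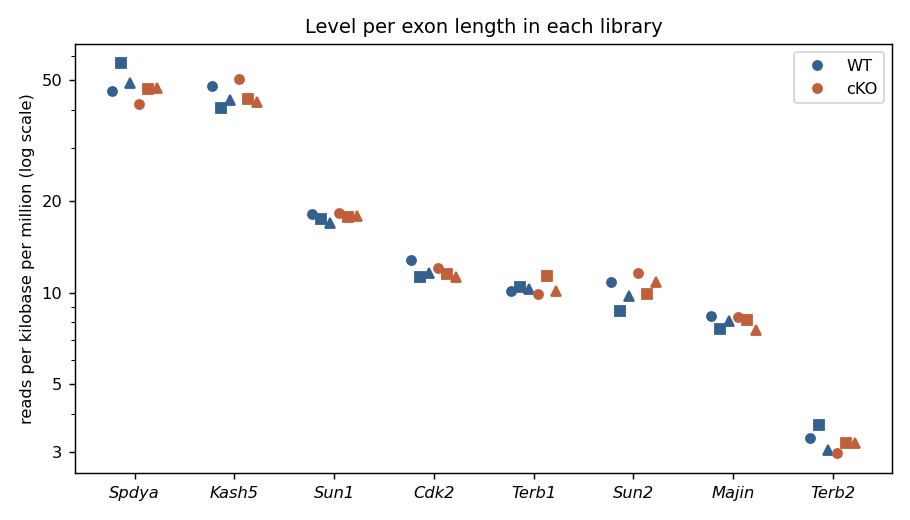
Level of each member in RPKM (log axis), with 1 point per library, circles, squares and triangles for replicates 1, 2 and 3, blue for WT and orange for cKO. Spdya and Kash5 lie between 40.5 and 56.9, Terb2 between 2.96 and 3.68, and the ranges of the WT and cKO points overlap in every gene.

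No member passed the test between the genotype labels. With edgeR's quasi-likelihood test and Benjamini-Hochberg adjustment over the 21902 genes tested, 0 of the 8 had an adjusted p under 0.05, against 0.0183% of all genes (4 genes), and the adjusted p of the members ran from 0.423 to 0.995. Without adjustment 0 of the 8 were under 0.05, against 13.9% of all genes (7.33% higher and 6.54% lower in cKO). The groups overlapped in all 8, whereas they did not overlap in 18.9% of the genes tested. In cKO, 4 members had the higher estimate and 4 the lower, with a median log2 fold change of 0.012, and 0.0031 over all genes tested. DESeq2 called 0 of the 8 and had 0 of them under an unadjusted p of 0.05, against 7.16% of all genes. The unadjusted count of edgeR became 2 of 8, Sun2 and Spdya, without WT replicate 1 (18.2% of all genes) or with a replicate block (18.7%). It was 1, Spdya, when no filter on low counts was used (10.6% of all genes). The p-values of that fit take little account of each gene's own spread, as described below. All 8 intervals of the fold change held 0, with half-widths from 0.14 to 0.22 on the log2 scale. Over the 8 genes the 95% limits stayed within 78.5% and 126.5% of the WT level, the lower limit being that of Spdya and the upper that of Sun2.

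**Figure D2:**
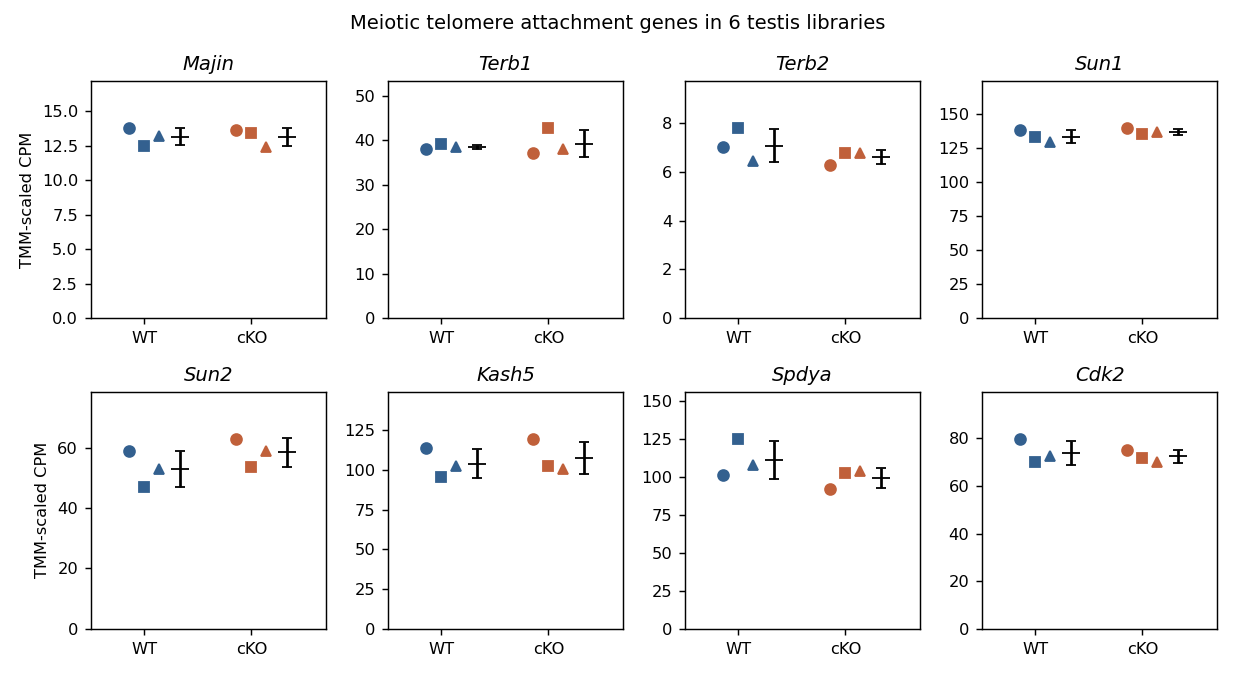
TMM-scaled CPM of each member (axes from 0), with circles, squares and triangles for replicates 1, 2 and 3 of each genotype label and, beside them, the mean and SD of the 3 libraries in black. The WT and cKO points overlap in all 8 genes, and the widest spread is that of Spdya, with 125 CPM in WT replicate 2 and 92.1 CPM in cKO replicate 1.

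The adaptors came first. Majin, the adaptor with a membrane anchor, had 13.8, 12.5 and 13.2 CPM in WT replicates 1, 2 and 3 and 13.7, 13.4 and 12.4 CPM in the cKO replicates. Its highest library was WT replicate 1 and its lowest cKO replicate 3, and the group means were 13.2 ± 0.628 and 13.2 ± 0.680 CPM (SD, n = 3). The log2 fold change was -0.0017 (SE 0.082), which put cKO at 99.9% of WT with 95% limits of 88.3% and 113%. The sign turned without WT replicate 1 (0.03) and without cKO replicate 3 (0.04).

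Terb1, which binds the shelterin protein Terf1, had 38.1, 39.1 and 38.5 CPM in WT and 37.1, 42.6 and 38.0 CPM in cKO. The WT libraries lay within 1 CPM of each other, and both the highest and the lowest library were cKO, replicates 2 and 1. Its log2 fold change was 0.025 (95% interval -0.13 to 0.18), and the sign turned without cKO replicate 2 (-0.04) and with library totals alone (-0.0032).

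Terb2, the bridge between Terb1 and Majin, had 413, 505 and 400 reads in WT and 457, 379 and 396 in cKO, the fewest of the members. These were 7.03, 7.78 and 6.44 CPM against 6.26, 6.77 and 6.78 CPM. WT replicate 2 was the highest library, and the other 5 lay between 6.26 and 7.03 CPM. The log2 fold change of -0.10 (95% interval -0.32 to 0.12) became -0.03 without WT replicate 2 and -0.18 without WT replicate 3.

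The proportions of the 3 adaptors to each other were compared in each library. The size of this and the later ratios between genes depends on the exon length used, which the SD does not show. The same lengths apply in both groups. Per length, the Terb1 level was 1.28 ± 0.0773 times that of Majin in WT and 1.31 ± 0.106 times in cKO (SD, n = 3). Terb2 was 0.419 ± 0.0562 and 0.391 ± 0.0347 times Majin. Both ratios overlapped between the groups.

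Of the inner membrane proteins, Sun1, without which telomeres attach poorly and mice are infertile, was the most steady member over the 6 libraries. It had 138, 133 and 129 CPM in WT and 139, 135 and 136 CPM in cKO. The highest library was 1.08 times the lowest. The coefficient of variation was 3.40% in WT and 1.64% in cKO, where counting error alone gives about 1.09%. Within WT, Terb1 varied less than Sun1, at 1.21%. The log2 fold change was 0.037 (SE 0.063), with limits of 93.3% and 112.8% of WT, the narrowest interval of the 8.

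Sun2, which partly shares the role of Sun1, had 58.7, 47.1 and 53.0 CPM in WT and 62.8, 53.5 and 58.9 CPM in cKO. WT replicate 2 was the lowest library and cKO replicate 1 the highest, but WT replicate 1 lay above cKO replicate 2. This gave the highest estimate among the members, a log2 fold change of 0.14 (SE 0.090, limits 96.4% and 126.5% of WT, edgeR adjusted p = 0.496). It was 0.06 without WT replicate 2 and 0.22 without WT replicate 1. The Sun1 level per length was 1.81 ± 0.177 times that of Sun2 in WT and 1.68 ± 0.110 times in cKO (SD, n = 3), with overlap. With the longest transcript as the length, the means were 32.7 RPKM for Sun1 and 12.6 RPKM for Sun2.

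Kash5, the outer membrane partner of Sun1 and an adaptor that activates dynein, had 114, 95.8 and 102 CPM in WT and 119, 103 and 101 CPM in cKO. Replicate 1 was the highest library in each group, and WT replicate 2 the lowest of all. The log2 fold change of 0.051 (95% interval -0.14 to 0.24) changed sign without cKO replicate 1, to -0.03, and without WT replicate 2, to -0.0051. Per length, Kash5 was 2.50 ± 0.165 times Sun1 in WT and 2.52 ± 0.201 times in cKO (SD, n = 3). The longest transcripts brought these genes closer, with means of 46.7 RPKM for Kash5 and 32.7 RPKM for Sun1.

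In the kinase module, Spdya had the widest spread of the 8 genes, with 101, 125 and 108 CPM in WT and 92.1, 103 and 104 CPM in cKO. WT replicate 2 stood above the other libraries and cKO replicate 1 below them, while WT replicate 1 fell inside the cKO range. Its log2 fold change of -0.16 (SE 0.086) was the lowest estimate, at 89.4% of WT with limits of 78.5% and 101.9%, and its edgeR adjusted p of 0.423 was the smallest of the 8. Without WT replicate 2 it was -0.07, and without WT replicate 1 it was -0.22 with an adjusted p of 0.221.

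The Spdya locus also holds other transcripts. Trmt61b overlaps 18.3% of its exon bases on the opposite strand and the pseudogene Mettl4-ps1 11.4% on the same strand. When reads were counted without strand, Spdya kept 70.9% of the reads of the strand-specific count, and the other members 96.4% to 103.1%. Trmt61b had 5.29, 6.03 and 5.57 CPM in WT and 4.69, 3.84 and 4.55 CPM in cKO, without overlap between the groups. Its log2 fold change was -0.37 (SE 0.11), which did not pass over all genes (edgeR adjusted p = 0.288). Mettl4-ps1, also without overlap, had a mean of 2.47 ± 0.0972 CPM in WT and 2.07 ± 0.318 CPM in cKO (SD, n = 3, edgeR adjusted p = 0.448). In the fit to counts without strand, the log2 fold change of Spdya was -0.17 (edgeR adjusted p = 0.391), against -0.16 in the main fit. The part of Trmt61b and Mettl4-ps1 in the Spdya value was not tested.

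Cdk2 had 79.7, 69.9 and 72.4 CPM in WT and 75.3, 71.8 and 70.2 CPM in cKO. The highest and the lowest library were both WT, and the cKO libraries lay between them. The log2 fold change was -0.031 (95% interval -0.19 to 0.12), and it was 0.03 without WT replicate 1. Spdya exceeded Cdk2 per length 4.29 ± 0.734 times in WT and 3.90 ± 0.388 times in cKO (SD, n = 3). That ratio ran from 3.46 in cKO replicate 1 to 5.06 in WT replicate 2. By longest transcript these genes also lay closer, with means of 55.8 RPKM for Spdya and 22.4 RPKM for Cdk2.

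**Figure D3:**
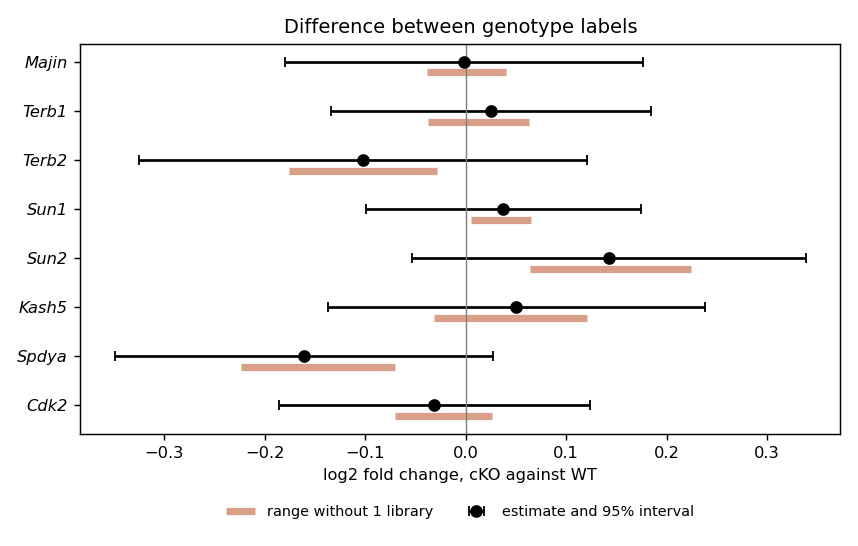
Log2 fold change of cKO against WT for each member, with the estimate and its 95% interval in black and, in orange, the range of the estimate when 1 library is left out. All 8 intervals hold 0, and the estimates run from -0.16 for Spdya to 0.14 for Sun2.

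The biological coefficient of variation fitted by edgeR ran from 6.30% (Sun1) to 8.64% (Terb2), where the median of all genes tested was 9.33%. That median covers genes of every level, while the members' mean CPM lay at percentiles 48.6 (Terb2) to 91.9 (Sun1). No median for genes of like level was computed. Within a group, the observed coefficient reached 11.0% (Spdya in WT). Counting error was below 5% of the level in each, from 1.09% for Sun1 to 4.85% for Terb2. The libraries did not order the members alike: WT replicate 2 was the highest for Terb2 and Spdya and the lowest for Sun2, Kash5 and Cdk2, and cKO replicate 1 was the highest for Sun1, Sun2 and Kash5 and the lowest for Terb1, Terb2 and Spdya.

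**Figure D4:**
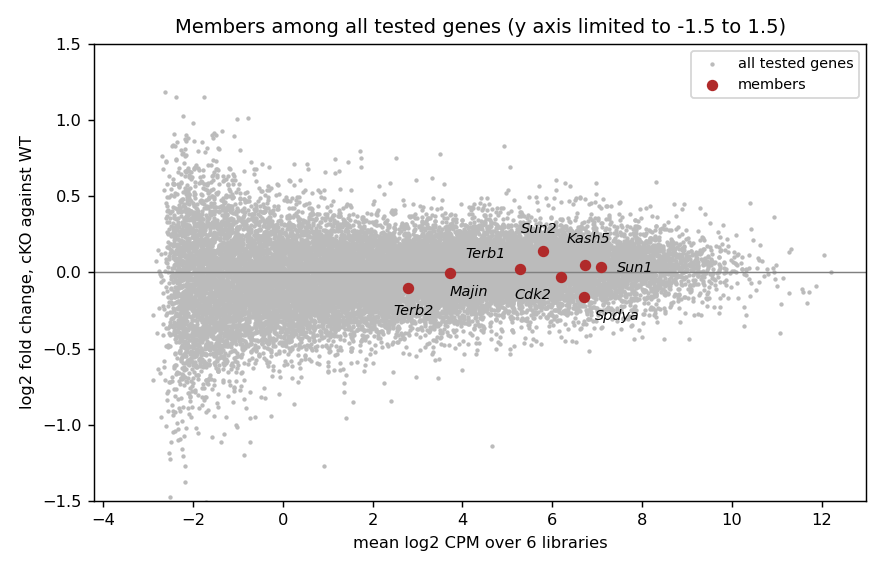
Log2 fold change of cKO against WT over the mean log2 CPM of the 6 libraries for the genes tested (grey) and the 8 members (red), with the vertical axis limited to 1.5 either way. The members lie between -0.16 and 0.14, within the cloud of genes of their level, and 20 genes fall outside the plotted range.

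The whole testis was sampled, so fewer cells of a type and less RNA per cell cannot be told apart, and the markers of the cells that use these genes are given beside them. The 7 leptotene to zygotene markers summed to 639 to 685 CPM in WT and 633 to 699 CPM in cKO, with a median log2 fold change of 0.03. The 7 pachytene to diplotene markers summed to 8802 to 9284 CPM and 8433 to 9441 CPM, with a median of 0.02. The 7 spermatogonial markers gave 124 to 146 CPM and 126 to 145 CPM. These sums overlapped between the groups, and 0 of the 21 genes passed the adjusted threshold with edgeR (1 at an unadjusted p under 0.05). The 7 round spermatid markers did not overlap in their sum, at 1154 to 1259 CPM in WT and 1108 to 1146 CPM in cKO, with 5 of 7 estimates lower, 3 of them at an unadjusted edgeR p under 0.05 and 0 past the adjusted threshold. Sun5 of that list and Ccna1 of the pachytene list also belong to the pathway lists below. The 7 elongating spermatid markers summed to 17110 to 18810 CPM and 15010 to 18310 CPM, with a median log2 fold change of 0.0040 and 1 gene, with a lower estimate, at an unadjusted p under 0.05. Among somatic cells, the sums were 1306 to 1575 and 1331 to 1737 CPM for 7 Sertoli markers, 834 to 995 and 763 to 990 CPM for 6 Leydig markers, 372 to 404 and 368 to 378 CPM for 5 peritubular myoid markers, and 78.7 to 89.5 and 82.2 to 94.9 CPM for 6 macrophage markers. Estimates were higher in cKO for 7 of 7 Sertoli markers, with a median of 0.12, 2 genes without overlap and 2 at an unadjusted p under 0.05. They were lower for 5 of 6 Leydig markers (1 at an unadjusted p under 0.05), 4 of 5 myoid markers (2, 1 in each direction) and 5 of 6 macrophage markers (2, 1 in each direction). None of these 24 genes passed the adjusted threshold with edgeR. The 5 markers of epididymis and blood summed to 4.18 to 5.00 CPM in WT and 2.02 to 4.93 CPM in cKO, and 2 of them had enough reads to be tested. No marker of any list was at 0 in all libraries. The part of cell composition in the members' values was not tested.

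The other genes of the pathway were described from 5 lists with 45 genes, all of which were tested. None of the 45 passed the adjusted threshold with edgeR (lowest adjusted p 0.288) or DESeq2 (43 with an adjusted p). At an unadjusted p under 0.05 there were 5 with a higher and 4 with a lower estimate in cKO, and 11 of 45 did not overlap, against 13.9% and 18.9% of all genes.

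Shelterin binds the telomere repeats and hands them to the adaptors. The 8 genes listed for it, with Fbxo47, a protein needed for stable attachment in spermatocytes, among them, had a median log2 fold change of 0.03, estimates from -0.09 to 0.10, 0 genes at an unadjusted p under 0.05 with edgeR and 1 without overlap. Tinf2, the most abundant by CPM, had 49.6, 47.0 and 44.7 CPM in WT and 48.8, 42.2 and 41.4 CPM in cKO (edgeR adjusted p = 0.632). Terf1, the partner of Terb1, had a log2 fold change of 0.016 (95% interval -0.15 to 0.18).

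The 10 nuclear envelope and lamina genes had a median estimate of 0.05, with 3 at an unadjusted p under 0.05, each with a higher estimate in cKO. Syne2, a giant nesprin that links the outer membrane to the cytoskeleton, was the most abundant by CPM. It had 83.3, 101 and 89.7 CPM in WT and 83.5, 158 and 141 CPM in cKO, so cKO replicates 2 and 3 were high while cKO replicate 1 was among the WT libraries (log2 fold change 0.48, SE 0.18, edgeR adjusted p = 0.306). Syne1, a second giant nesprin, had the same order, with 5.51, 7.95 and 6.23 CPM in WT and 5.62, 13.6 and 11.0 CPM in cKO.

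The 13 genes of cytoplasmic dynein and dynactin, the motor that Kash5 recruits, had a median of 0.04, with 2 higher and 1 lower at an unadjusted p under 0.05. The heavy chain Dync1h1 had 518, 598 and 533 CPM in WT and 515, 936 and 760 CPM in cKO, with cKO replicate 1 below all WT libraries and the other cKO libraries above them (log2 fold change 0.42, SE 0.16, edgeR adjusted p = 0.309). Without cKO replicate 1, Syne1, Syne2 and Dync1h1 were the 3 pathway genes past the threshold, while 628 of all 22255 genes tested passed in that fit. Their log2 fold changes there were 0.90, 0.71 and 0.63, with edgeR adjusted p of 0.00885, 0.00269 and 0.00645. These 3 pathway genes also passed with all 6 libraries when no filter on low counts was used, as did 757 of all 36605 genes in that fit. It had up to 146400 degrees of freedom per gene, against up to 14.3 with the replicate block. Its p-values therefore take little account of each gene's own spread. The longest annotated transcripts of Syne1, Syne2 and Dync1h1 are 27908, 21704 and 14342 bases. The median over the genes tested is 2676 bases, and the other 42 pathway genes have at most 8570. The part of transcript length in these values was not tested. Syne1 and Terf1 were named after their values were seen, as was Syne3, another nesprin, at 16.8 ± 1.64 CPM in WT and 20.8 ± 1.31 CPM in cKO (SD, n = 3) without overlap and with an edgeR adjusted p of 0.288.

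Among 9 Cdk2 partners and inhibitors the median log2 fold change was -0.04, and 1 gene was under an unadjusted p of 0.05. Ccna1, the germ cell cyclin A and the most abundant by CPM, had 181, 171 and 174 CPM in WT and 179, 175 and 176 CPM in cKO (log2 fold change 0.011, 95% interval -0.12 to 0.14). The 1 gene was Ccne2, a cyclin E that also binds Cdk2, named after its values were seen. It had 52.8, 59.1 and 59.6 CPM in WT and 46.7, 49.1 and 50.8 CPM in cKO, without overlap, and did not pass over all genes (log2 fold change -0.23, SE 0.072, edgeR adjusted p = 0.288).

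Of 5 SUN and KASH genes listed as later acting, in spermatids or in other cells, all 5 had the lower estimate in cKO, against 49.3% of the genes tested, with a median of -0.19. The groups did not overlap in 3 of them, and 2 were under an unadjusted p of 0.05 (background 8.85% and 6.54% for lower genes). Of the 3 without overlap, Syne4 and Lrmp were near the floor, with means of 1.05 and 0.427 CPM. Syne4 was also under the unadjusted p of 0.05. Both were named after their values were seen, as was Sun5 here, with a log2 fold change of -0.0185. Spag4, the most abundant by CPM, had 270, 286 and 279 CPM in WT and 272, 245 and 252 CPM in cKO (edgeR adjusted p = 0.445). Sun3, a spermatid SUN protein named after its values were seen, had 86.7, 99.2 and 94.5 CPM in WT and 79.1, 85.8 and 81.5 CPM in cKO (log2 fold change -0.19, SE 0.072, edgeR adjusted p = 0.310). The round spermatid marker sum given above was lower in cKO too, and its part in these values was not tested.

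Genes with a pattern like the mean of the adaptors were sought among 10029 tested genes whose mean level was 10 CPM or more. Likeness was the root mean square difference, over the 6 libraries, between a gene's centred log2 CPM and the mean centred log2 CPM of Majin, Terb1 and Terb2. The nearest 3 were St7l (0.010), Pqlc1 (0.012) and Zfp180 (0.015), where the median over the genes compared was 0.11. They were selected as the smallest of all differences. The mean itself was nearly flat, from -0.0445 in cKO replicate 1 to 0.0499 in cKO replicate 2. The adaptors did not follow each other: in WT replicate 2, Majin was at -0.0714, Terb1 at 0.0069 and Terb2 at 0.188. Genes that vary little lie near such a mean, so the search shows no pattern shared by the adaptors. The adaptors that make up the mean lay at 0.045 (Terb1), 0.068 (Majin) and 0.077 (Terb2) from it, and the other members at 0.057 (Sun1), 0.076 (Cdk2), 0.12 (Spdya), 0.13 (Kash5) and 0.16 (Sun2).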

How the data were processed

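The deposited values are raw read counts per gene, 1 table per library, with an unstranded column and 1 column for each strand. The layout is that of STAR, and STAR, HTSeq, DESeq2 and mm10 are named in the submitters' processing notes without versions. Aligner settings and the annotation release are not given in the sources used here. The column of reads that align opposite to the gene held 96.0% to 96.2% of stranded reads. It was used as the count of each gene's own RNA. Lines outside single genes (14.8% to 16.8% of reads) were left out. GENCODE M21 (GRCm38) matched 52093 of 53700 identifiers and gave symbols, lengths and coordinates.

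Counts were fitted with edgeR 4.0.16 in R 4.3.3 (TMM, filterByExpr with a minimum count of 10, quasi-likelihood F test between the labels, no covariates, adjusted p threshold 0.05), after a test on simulated data. SEs and 95% intervals came from the F statistic. CPM and RPKM were computed from the counts. DESeq2 1.42.0 was an alternative. No 2 libraries agreed within sampling noise.

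The members and lists were chosen with earlier results of these data known. Named were all members, Msl3, each pathway list's most abundant gene by CPM and any past the threshold, the sums of the marker lists, and the 3 genes nearest in pattern. Other genes are marked in the text or overlap a member.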

Additional observations from a re-analysis of the deposited data

How the results depend on the processing

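No member passed the threshold under any of the 15 alternatives tried: RLE scaling, library totals, no filter on low counts, 10 reads in every library, robust quasi-likelihood, a replicate block, unstranded counts, DESeq2, an adjusted p of 0.1 and each library left out. Over all genes, the count of 4 became 757 without a filter, 2 with unstranded counts, 193 with DESeq2 and 1 to 628 without a library, the highest without cKO replicate 1 (116 without WT replicate 1). Of the pathway genes, 3 passed without a filter, and 0 to 3 without a library. The cause was not tested. Directions changed only for 4 members with estimates near 0. Terb1 was -0.0032 with library totals, and without a library the ranges were -0.038 to 0.040 for Majin, -0.038 to 0.063 for Terb1, -0.031 to 0.12 for Kash5 and -0.071 to 0.026 for Cdk2.

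Deviations from the group mean, taken across genes, correlated at 0.346, 0.261 and -0.046 between WT and cKO libraries of the same number. WT replicates 1 and 2 correlated best with the cKO library of their number, and WT replicate 3 with cKO replicate 2 (0.112). Deviations cancel within a group, so these values are not independent and cannot settle whether the numbers mark pairs. The labels name no pairs, and the main fit used none. The replicate block gave 49 genes, 0 members and 0 pathway genes past the threshold, with Spdya at -0.16 (edgeR adjusted p = 0.226) and Sun2 at 0.14 (edgeR adjusted p = 0.234).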

Other observations

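Reads of the other stranded column, those expected from RNA transcribed antisense to the members, were counted separately and used in no test. They were nearly absent at Majin (0 to 2 reads per library), Kash5 (2 to 7), Terb1 (2 to 9) and Terb2 (1 to 8). At Sun1 there were 108 to 165 reads per library, where the antisense gene 4930520M14Rik overlaps 3.98% of the exon bases. That gene had 3.06, 4.56 and 4.02 CPM in WT and 2.93, 3.04 and 3.36 CPM in cKO (edgeR adjusted p = 0.363). Cdk2, which shares 34 exon bases with the melanosome gene Pmel on the other strand, had 153 to 217 such reads. At Spdya, Trmt61b overlaps 18.3% of the exon bases on the opposite strand. Such reads of Spdya numbered 166, 234 and 185 in WT and 164, 117 and 146 in cKO. Reads of that strand also make up the Trmt61b count given above, so these counts are not separate measures. How many reads they share was not computed. Relative to library size (CPM of assigned reads) the Spdya values were 2.82, 3.69 and 3.00 against 2.22, 2.05 and 2.50, without overlap and with no test. On that measure the groups overlapped for every other member. The share of all genes without overlap was not computed for these reads. Such reads made up 3.84% of the stranded reads of Cdk2, the highest share, 2.51% of those of Spdya and 0.0606% of those of Kash5, the lowest.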
